A study of Mus musculus with 4 samples.

Results

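The SMC complexes are the ring-shaped machines that hold, loop and untangle chromosomes, and 9 genes of these complexes were followed here in mouse splenic regulatory T cells, the CD4 T cells that express Foxp3 and restrain immune responses. The 9 genes were Smc5, Smc6, Nsmce1, Nsmce2 and Nsmce4a of SMC5/6, Smc1a and Smc3 of cohesin, and Smc2 and Smc4 of condensin, out of 30497 genes named on the array. They were chosen by the measured value of Smc6, which reads about 4-fold lower in the arrays labelled KO, together with the other SMC genes found by symbol. All 9 were found, each as 1 transcript cluster, the array's unit for a gene. Because the choice rests on the comparison of KO with WT, the values of the 9 genes are given as a description without a test.

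The series has 4 arrays, WT replicates 1 and 3 and KO replicates 1 and 2, of cells sorted as GFP+ from CD4-enriched spleen cells of mice aged 7 to 8 weeks. Mice of both groups carried the transgene B6-Tg(Foxp3EGFP-cre)1cJbs/J on C57BL/6, which makes a green fluorescent protein joined to Cre recombinase in cells that use the Foxp3 promoter. The KO mice also carried BMI1-flox, a Bmi1 gene that Cre can delete, whereas the WT mice had Cre alone. Bmi1 is a subunit of Polycomb repressive complex 1, which silences developmental genes and the Cdkn2a locus. The titles and the treatment field describe cells without stimulation, while the series text gives 24 h with antibodies to CD3 and CD28, and which of them applies is unsettled. Each sample came from 15000 to 40000 sorted cells, and nothing says whether the 2 samples of a group came from separate mice, so that a p-value measures only the spread between these samples.

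Bmi1, the targeted gene, read 8.98 in both arrays labelled WT and 9.58 and 9.91 in those labelled KO, higher where the label states a deletion (difference 0.77 on the log2 scale, SE 0.16). Which exons its cluster covers is not stated, and a cluster outside the deleted part would check nothing. The groups are therefore called the arrays labelled WT and the arrays labelled KO, and every direction rests on those labels. Il2ra (CD25), a defining surface protein of these cells, read between 14.97 and 15.01 in the 4 arrays, and Ctla4 between 12.27 and 12.68, while Foxp3 has no value here because its cluster is shared with other genes. All 7 measured regulatory T cell markers read above the median gene in every array. Of these, Lrrc32, which presents latent TGF-beta on regulatory T cells, read 12.05 and 12.28 in the arrays labelled WT and 11.18 and 10.48 in those labelled KO (difference -1.34, SE 0.25), and Ikzf2 (Helios) read 12.00 and 12.16, then 11.96 and 11.89. Tnfrsf4 was higher without overlap (15.83 and 15.90, then 15.92 and 16.01). Il2rb and Tnfrsf18 overlapped between groups, with differences of 0.33 and -0.075. Markers of other cells were mixed. Cd8a lay below the median gene of every array, as did 3 of 4 measured B cell and 4 of 5 myeloid markers. Cd8b1 at 9.74 to 11.26, Nkg7 at 10.48 to 12.31, Xbp1 at 10.98 to 11.50 and Cd79b at 7.42 to 7.91 lay above it in every array. So did Jchain at 6.47 to 7.66, Prdm1 at 6.36 to 6.59 and Cd68 at 5.02 to 5.79. Over all transcript clusters, not independent of each other, the 2 arrays labelled WT correlated at r = 0.993 (Pearson), the 2 labelled KO at 0.994, and arrays of different groups at 0.991 to 0.992.

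SMC proteins are long coiled-coil ATPases that pair through a hinge, and a kleisin subunit closes the ring between their heads. Cohesin holds sister chromatids together and forms chromatin loops, which it does in resting lymphocytes as well as in dividing ones. Condensin compacts chromosomes for mitosis. SMC5/6 removes joined DNA molecules that arise during replication and recombination, carries its own SUMO ligase, and silences DNA that is not part of a chromosome.

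Smc6, an ATPase that gives SMC5/6 its name, read 14.54 and 13.74 on the log2 scale in the arrays labelled WT and 12.27 and 12.03 in the arrays labelled KO. Both arrays labelled KO lay below both labelled WT, with 1.47 between the nearest arrays of the groups. The means were 14.14 ± 0.57 and 12.15 ± 0.17 (SD, n = 2 each), a difference of -1.99 (SE 0.28), or 3.97-fold lower. The size depended on which arrays were set against each other. WT replicate 1 against KO replicate 2 gave -2.51, or 5.70-fold lower, and WT replicate 3 against KO replicate 1 gave -1.47, or 2.77-fold lower. Without WT replicate 1 the difference was -1.59, which is 3.01-fold lower, and without WT replicate 3 it was -2.39, which is 5.24-fold lower. The 2 arrays labelled WT stood 0.80 apart for Smc6, a gap that only 414 of the 30497 genes (1.36%) reached, whereas the arrays labelled KO stood 0.24 apart.

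Smc6 had the 11th lowest difference of the 30497 genes. It was 1 of 87 genes at least 2-fold lower in the arrays labelled KO, which is 0.285% of all genes, and since this contrast chose the gene nothing is read from that share. At a limma Benjamini-Hochberg adjusted p under 0.05, 2 genes passed in the whole table (0.00656%). No call is given for the 9 SMC genes, because this contrast chose them. The genes next to Smc6 in that order were Ifi206, an interferon-induced gene, at -2.11, and Trav4n-4, a T cell receptor alpha segment, at -1.97. The arrays of Ifi206 overlapped between groups (11.56 and 7.52 labelled WT, 7.25 and 7.61 labelled KO), while those of Trav4n-4 did not (12.54 and 12.77, then 11.07 and 10.30).

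**Figure D1:**
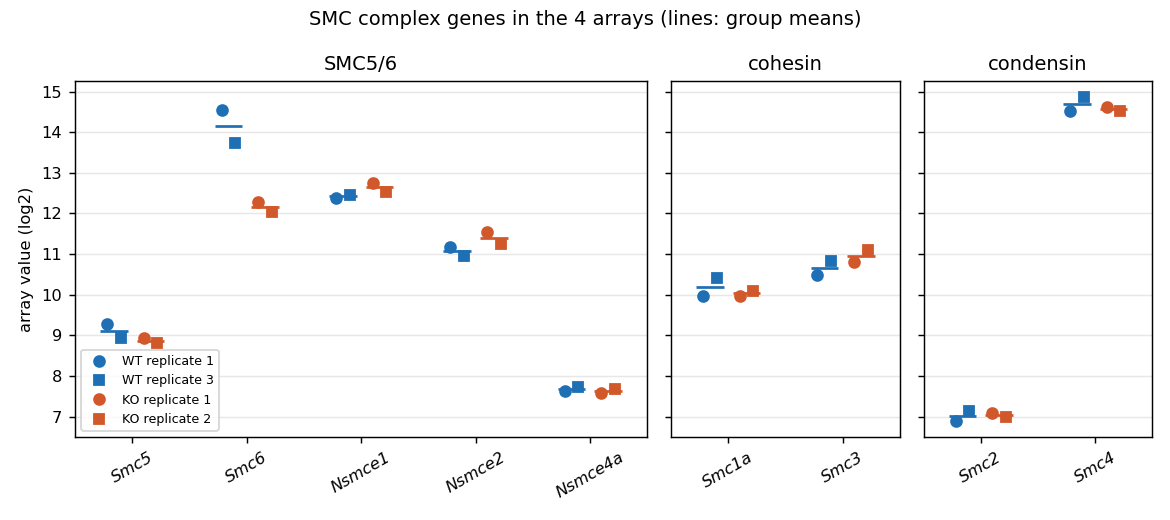
Log2 array value (vertical axis) of the 9 SMC genes (horizontal axis) in the 4 arrays, with a short line at each group mean, in panels for SMC5/6, cohesin and condensin. The Smc6 points labelled KO, at 12.27 and 12.03, stand apart from those labelled WT, at 14.54 and 13.74, and the points of the other 8 genes lie close together.

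The other 4 followed genes of SMC5/6 differed by 0.34 or less in either direction. Smc5, the ATPase that pairs with Smc6, read 9.28 and 8.94 in the arrays labelled WT and 8.94 and 8.80 in those labelled KO. The groups met at 8.94, and the difference was -0.24 (SE 0.17). Nsmce4a, the kleisin that bridges the heads of the pair, read 7.63 and 7.73, then 7.59 and 7.67, so its arrays overlapped around a difference of -0.05 (SE 0.12).

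The ligase subunits read slightly higher. Nsmce1, a RING-finger subunit, read 12.39 and 12.46 in the arrays labelled WT and 12.75 and 12.54 in those labelled KO, a difference of 0.22 (SE 0.12), with 0.08 between the nearest arrays. Nsmce2, the SUMO ligase that docks on Smc5, read 11.18 and 10.95, then 11.55 and 11.25, a difference of 0.34 (SE 0.16), with 0.07 between the nearest arrays. For both genes the gap between groups was smaller than the spread within the group labelled KO, which was 0.21 for Nsmce1 and 0.30 for Nsmce2. A further quantile normalization of the arrays brought the difference of Nsmce1 to 0.09.

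In cohesin, the paired ATPases differed in opposite directions and both overlapped between groups. Smc1a, on the X chromosome, read 9.98 and 10.40 in the arrays labelled WT and 9.98 and 10.09 in those labelled KO, a difference of -0.16 (SE 0.18). Smc3, the partner whose acetylation locks cohesin on sister chromatids, read 10.49 and 10.82, then 10.80 and 11.11, a difference of 0.30 (SE 0.18). Without WT replicate 3 the sign of Smc1a turned, to 0.06.

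Condensin showed the same overlap. Smc2 read 6.89 and 7.15 in the arrays labelled WT and 7.10 and 6.98 in those labelled KO, a difference of 0.02 (SE 0.14). It was the only 1 of the 9 genes whose sign turned under another scaling, to -0.00375 after a further quantile normalization, and without WT replicate 1 its difference was -0.11. Smc4, its partner, read 14.52 and 14.86, then 14.63 and 14.53, a difference of -0.11 (SE 0.13), and without WT replicate 3 the sign turned, to 0.06. All 4 cohesin and condensin ATPases read higher in WT replicate 3 than in WT replicate 1, as did Nsmce1 and Nsmce4a, whereas Smc5, Smc6 and Nsmce2 read lower there.

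Side by side, the median difference was -0.05 over the 5 SMC5/6 genes (-1.99 to 0.34), 0.07 over the 2 cohesin genes and -0.045 over the 2 condensin genes, against 0.005 over all genes. Leaving Smc6 out, the other 4 SMC5/6 genes had a median of 0.09 and a range of -0.24 to 0.34, which encloses the values of Smc1a, Smc3, Smc2 and Smc4. The groups' arrays stood apart without overlap in 1 of the 9 genes with KO lower (Smc6), against 17.5% of all genes, and in 2 with KO higher (Nsmce1 and Nsmce2), against 20.9% of all genes. Smc6 was also the only 1 of the 9 outside the middle 95% of all genes, which runs from -0.41 to 0.52. Nothing is read from this or from its lack of overlap, because Smc6 was chosen for its difference. All 9 read above the median gene in every array. For 7 of the 9 genes the arrays labelled WT stood further apart than those labelled KO.

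The value of Smc6 was next set against each of the other 8 genes within the same array, which takes out any scaling that an array's genes share. The difference was smallest against Smc5, at -1.75 or 3.36-fold lower, and greatest against Nsmce2, at -2.33 or 5.01-fold lower. Against its cohesin and condensin relatives the difference of Smc6 was -1.84 (Smc1a), -2.29 (Smc3), -2.01 (Smc2) and -1.88 (Smc4). Against the mean of all 8, with the WT mean set to 0, Smc6 stood at 0.46 and -0.46 in the arrays labelled WT and at -1.93 and -2.13 in the arrays labelled KO. This difference of -2.03, or 4.08-fold lower, ranged from -2.49 to -1.57 when each array was left out in turn.

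The remaining subunits of the 3 complexes, taken from lists of their known parts, extend the comparison to 27 genes. Of the 18 further subunits, none passed the limma test at an adjusted p of 0.05. In SMC5/6, Slf1, which with Slf2 links the complex to sites of DNA damage, read 6.59 and 6.56 in the arrays labelled WT and 6.27 and 6.29 in those labelled KO. The groups did not overlap, and the difference was -0.30 (SE 0.11, limma adjusted p 0.454). Slf2 differed by -0.05, Simc1, a SUMO-binding partner of Slf2, by 0.01, and Nsmce3, the MAGE-family subunit that joins Nsmce1, by -0.015 (limma adjusted p 0.976). Eid3, a relative of Nsmce4a known from testis, read below the median gene in every array and overlapped between groups (4.57 and 3.64, then 3.86 and 3.28), with a difference of -0.54 (SE 0.35, limma adjusted p 0.690).

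Among the further cohesin subunits, Stag2, a HEAT-repeat subunit of somatic cells, read 10.25 and 10.50, then 10.07 and 10.06, with no overlap, a difference of -0.31 (SE 0.14, limma adjusted p 0.554). Its relative Stag1 differed by -0.06 and the somatic kleisin Rad21 by -0.05. The subunits known from meiosis, Smc1b, Rec8, Rad21l and Stag3, differed by -0.07 to 0.05, and 3 of them, Smc1b, Rad21l and Stag3, read below the median gene in every array. The condensin I subunits Ncapd2, Ncapg and Ncaph differed by 0.08, 0.20 and 0.23. The condensin II subunits Ncapd3, Ncapg2 and Ncaph2 differed by -0.13, 0.17 and 0.01. Without overlap, 3 of the 9 cohesin subunits were lower (Stag2, Stag1 and Smc1b) and 0 higher, beside 17.5% and 20.9% of all genes. For Stag1 the groups were separated only by 9.49 against 9.48. No condensin subunit was free of overlap between the groups.

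Over whole complexes, the median difference was -0.05 for the 10 SMC5/6 subunits, -0.05 for the 9 cohesin subunits (-0.31 to 0.30) and 0.05 for the 8 condensin subunits (-0.13 to 0.23). Smc6 was the only 1 of the 27 that differed by 2-fold or more. Of all 30497 genes, 87 were at least 2-fold lower (0.285%) and 118 at least 2-fold higher. With Eid3, Smc6 was 1 of 2 outside the middle 95% of all genes. Since Smc6 was chosen for its difference, nothing is read from its place in these counts.

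**Figure D2:**
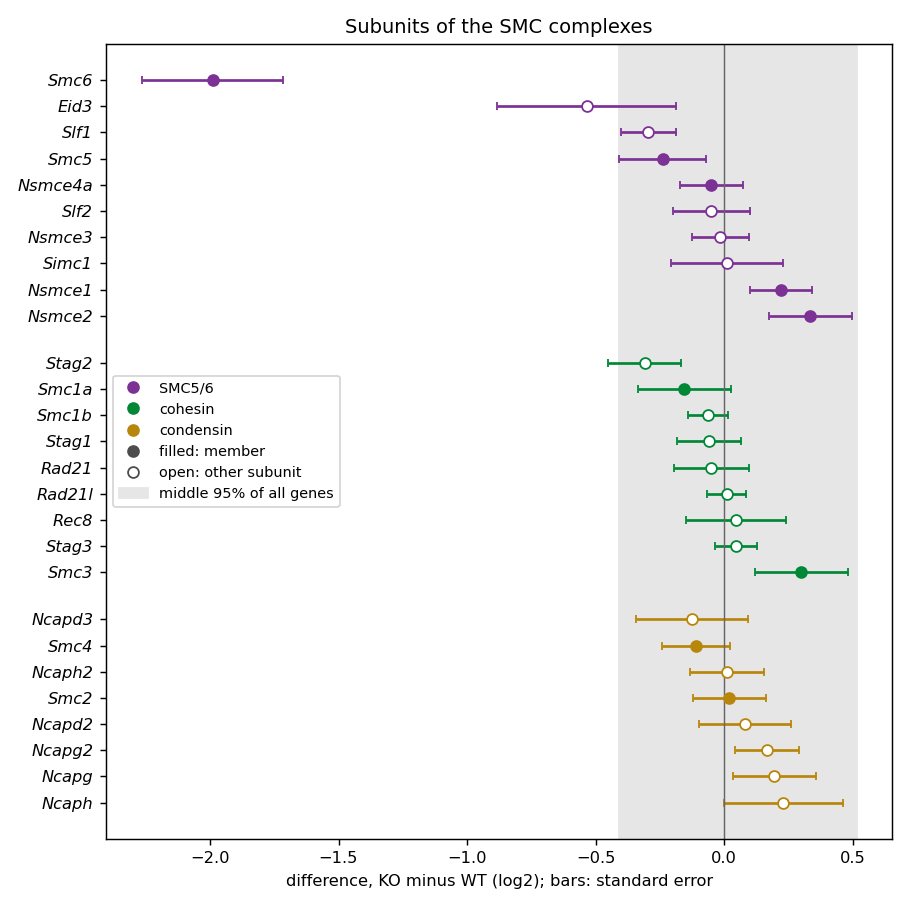
Difference between the arrays labelled KO and WT on the log2 scale (horizontal axis, bars are the standard error from limma) for 27 subunits of SMC5/6, cohesin and condensin, with the 9 followed genes filled and the grey band spanning the middle 95% of all genes. Smc6 at -1.99 lies outside the band, Eid3 at -0.54 lies just outside it with a wide bar, and the other 25 lie inside.

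The probes of a gene can also be read against those of transcripts made from the same stretch of DNA. In the RefSeq annotation, Smc6 lies on chromosome 12 and holds 1 measured microRNA gene, Mir7675, while Smc4 on chromosome 3 holds Mir15b and Mir16-2, the pair related to the microRNAs best known as suppressors of the apoptosis inhibitor Bcl2. Both mature sequences of Mir7675 and the 5p sequences of Mir15b and Mir16-2 are shown, because these RNAs share a host transcript with a followed gene. The 3p sequences of Mir15b and Mir16-2 are left out. They come from RefSeq (GRCm38.p6), are written 5′ to 3′, and have the seed, bases 2 to 8, in capitals.
mmu-miR-7675-5p: cUUACGAAagaaugaagagcaa
mmu-miR-7675-3p: uGUUUCAUuuguucgugacuc
mmu-miR-15b-5p: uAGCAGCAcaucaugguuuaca
mmu-miR-16-5p: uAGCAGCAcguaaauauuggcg
The first pair lies at chr12:11299887-11299908 and chr12:11299924-11299944, and the second at chr3:69009775-69009796 and chr3:69009918-69009939, all on the plus strand. The seed AGCAGCA is shared by 10 of the 1679 mature names in that table, miR-15b-5p and miR-16-5p among them, whereas each miR-7675 seed belongs to 1 name.

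Mir7675 read 8.28 and 8.52 in the arrays labelled WT and 6.67 and 7.31 in those labelled KO, so that, as for its host, both arrays labelled KO lay below both labelled WT. Its means were 8.40 ± 0.17 and 6.99 ± 0.45 (SD, n = 2 each), a difference of -1.41 (SE 0.24), or 2.66-fold lower. Within the groups the order of the arrays was not that of Smc6. Smc6 was higher in WT replicate 1 and in KO replicate 1, and Mir7675 was higher in WT replicate 3 and in KO replicate 2. Whether the Mir7675 probes read the microRNA, its hairpin or the Smc6 transcript around it was not tested.

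The microRNAs inside Smc4 spread more widely than their host. Mir15b read 6.19 and 4.06, then 3.58 and 5.39, a difference of -0.64 (SE 0.87), and Mir16-2 read 6.82 and 5.38, then 5.38 and 5.22, a difference of -0.80 (SE 0.46). Both overlapped between groups, and the arrays labelled WT stood 2.13 apart for Mir15b and 1.44 apart for Mir16-2, against 0.34 for Smc4. Of the genes that overlap Smc1a, the pseudogene Gm15267 inside it differed by 0.08 (14.73 and 15.17, then 15.04 and 15.01), and Ribc1, a ciliary protein gene at its end, also by 0.08 (5.08 and 5.28, then 5.18 and 5.34).

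**Figure D3:**
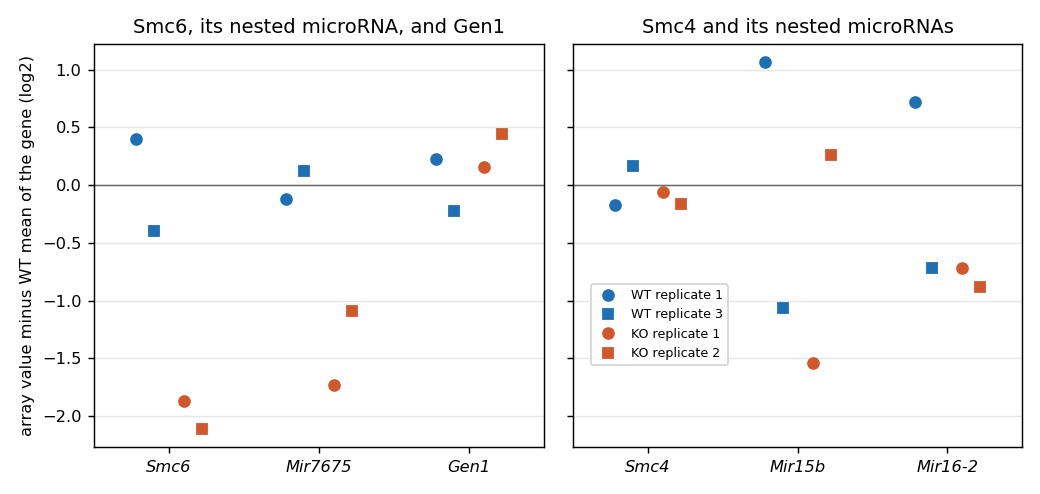
Array value minus the WT mean of the same gene on the log2 scale (vertical axis) in the 4 arrays, for Smc6 with its nested Mir7675 and neighbouring Gen1 (left) and for Smc4 with its nested Mir15b and Mir16-2 (right). Both arrays labelled KO are below both labelled WT for Smc6 and Mir7675, while the arrays overlap for Gen1 and for all 3 genes of the right panel.

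Gen1, which encodes a nuclease that cuts recombination junctions, starts beside Smc6 on the opposite strand. It read 5.59 and 5.14 in the arrays labelled WT and 5.52 and 5.81 in those labelled KO, with overlap and a difference of 0.30 (SE 0.19, limma adjusted p 0.680). The next genes outward were Msgn1, a mesoderm transcription factor gene, at -0.10 (4.34 and 4.33, then 4.27 and 4.21), and Vsnl1, a neuronal calcium sensor gene, at -0.04 (4.36 and 4.46, then 4.43 and 4.31). Both read below the median gene in every array.

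Over the 10 nearest measured genes on each side of Smc6, the median difference was 0.005 and the range -1.41 to 0.96. Mir7675 was the only 1 of these 20 that was at least 2-fold lower, beside 0.285% of all genes, and without it the lowest was -0.37. The highest, 0.96, belonged to Tubb2a-ps2, a tubulin pseudogene (5.59 and 5.65, then 6.57 and 6.59). The arrays did not overlap for 6 of the 20 with KO lower and for 5 with KO higher, beside the 17.5% and 20.9% of all genes. Of the 20, 12 are not protein-coding and 11 read below the median gene in every array.

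**Figure D4:**
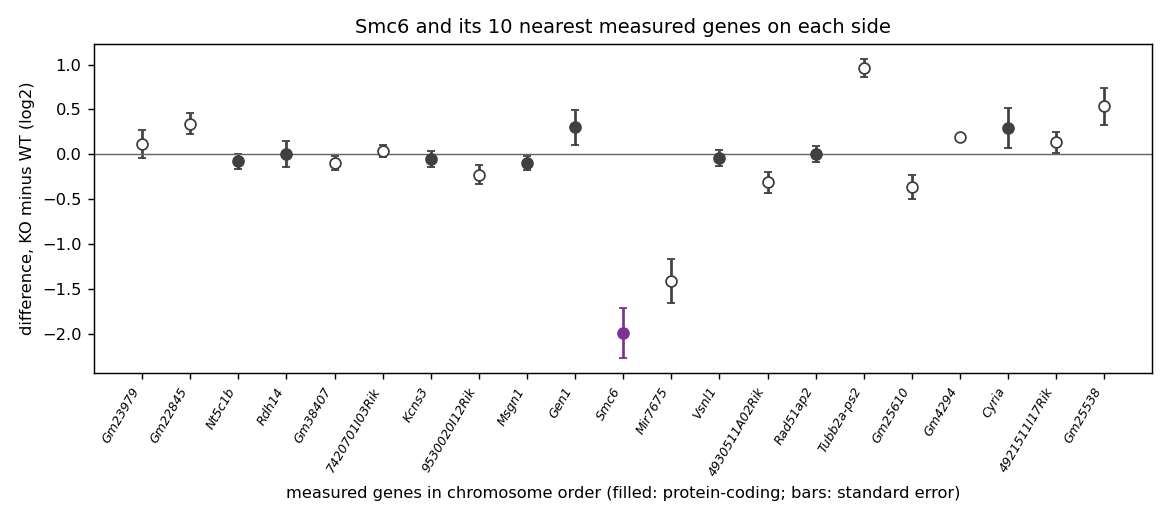
Difference between the arrays labelled KO and WT on the log2 scale (vertical axis, bars are the standard error from limma) for Smc6 and its 10 nearest measured genes on each side, in chromosome order (horizontal axis), with protein-coding genes filled. Smc6 at -1.99 and Mir7675 at -1.41 stand below the rest, whose lowest value is -0.37.

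The start regions of the followed genes were read from a RefSeq table (GRCm38.p6) of 300-base windows, 250 before to 50 after each start, in which 7 of the 9 genes had a window. The Smc6 window held 20 CpG dinucleotides and 59.7% G and C, against a median of 7 and 52.7% over the 32851 windows, and 26.5% of all windows held at least as many CpG. The windows of Smc3, Smc2 and Smc1a held 32, 21 and 23 CpG. Those of Nsmce4a and Smc5 held 15 and 6, and Nsmce1 had a window of 35 and another of 1. On either strand the letters GGGCGG were in the windows of Smc6, Nsmce1, Smc1a, Smc3 and Smc2 (35.7% of all windows), and GCATGC in those of Smc6 and Smc2 (7.93% of all). TATAAA, found in 13.6% of all windows, was in none of the 7 genes' windows. CCAAT, found in 37.4%, was in a window of Nsmce1, Nsmce4a, Smc1a and Smc2 and not in those of Smc6, Smc5 and Smc3. These motifs were chosen after the Smc6 window had been read, and a match is a run of letters only.

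Genes that work with the SMC complexes were described from 4 further lists. With the remaining subunits they made 69 measured genes outside the 9, of which none rose and none fell at a limma adjusted p under 0.05 (smallest 0.205). At an unadjusted limma p under 0.05, 4 of the 69 were lower in the arrays labelled KO, beside 3.75% of all genes, and 2 were higher, beside 6.32% of all genes. The median difference of the 69 was -0.02, against 0.005 over all genes, and the arrays did not overlap for 18 with KO lower and 11 with KO higher, beside 17.5% and 20.9% of all genes.

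Among 14 genes of cohesin loading, release and protection the median difference was -0.07. Pttg1, the securin that holds separase inactive until anaphase, read 9.77 and 9.98 in the arrays labelled WT and 8.81 and 8.77 in those labelled KO. Its groups stood clear of each other, with a difference of -1.09 (SE 0.14, limma adjusted p 0.205), the lowest of the 69. Nipbl, which loads cohesin, read 11.42 and 11.46, then 11.04 and 11.08, a difference of -0.38 (SE 0.11, limma adjusted p 0.398). Its partner Mau2 read 9.62 and 9.47, then 9.40 and 9.04, a difference of -0.33 (limma adjusted p 0.612). Esco1, the acetyltransferase that modifies Smc3, read 10.70 and 10.84, then 10.99 and 10.98, a difference of 0.22 (limma adjusted p 0.642). In this list of 14, 5 genes had the arrays labelled KO lower without overlap and 2 had them higher, beside 17.5% and 20.9% of all genes.

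The list of Rad50-type and other SMC-like proteins had 4 genes, and in all 4 the arrays labelled KO lay below those labelled WT, as in 17.5% of all genes. For Nbn the groups were separated only by 9.34 against 9.33. Mre11a, the nuclease of the complex that first senses broken DNA ends, read 8.52 and 8.82, then 8.48 and 8.09, a difference of -0.39 (limma adjusted p 0.596). Its partners Rad50 and Nbn differed by -0.14 and -0.08, and Smchd1, an SMC-hinge protein of the inactive X chromosome, by -0.13. None of the 4 passed the test.

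Of 24 listed genes of homologous recombination and junction resolution, 21 were measured, with a median difference of -0.005. Rad52, a recombination mediator, read 7.74 and 7.81, then 8.41 and 8.23, a difference of 0.55 (SE 0.13, limma adjusted p 0.354), the highest of the 69. Atm, the kinase that signals double-strand breaks, read 9.64 and 9.54, then 9.14 and 9.27, a difference of -0.39 (SE 0.13, limma adjusted p 0.439). Mus81, a junction nuclease, read 7.43 and 7.16, then 7.65 and 7.48, a difference of 0.27 (limma adjusted p 0.636). Without overlap, 5 of the 21 were higher and 4 lower, near the 20.9% and 17.5% of all genes.

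Of 17 listed genes of SUMO attachment, the reaction that Nsmce2 carries out, and of SUMO removal, 12 were measured, with a median difference of 0.04. The 4 with the greatest differences free of overlap were the proteases Senp3 at 0.20, Senp7 at -0.12 and Senp1 at 0.11 and the ligase Pias1 at 0.13, with limma adjusted p between 0.692 and 0.853. The sign of Pias1 turned to -0.04 after a further quantile normalization.

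**Figure D5:**
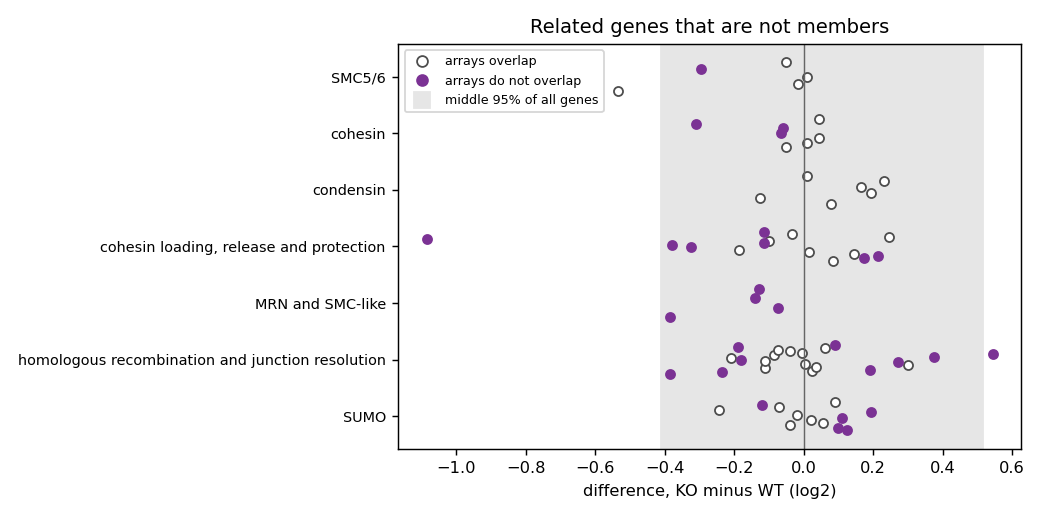
Difference between the arrays labelled KO and WT on the log2 scale (horizontal axis) for the 69 related genes outside the 9, by list (vertical axis, points spread within a list for legibility), filled where the arrays of the groups do not overlap, with the grey band spanning the middle 95% of all genes. Pttg1 at -1.09, Eid3 at -0.54 and Rad52 at 0.55 lie outside the band, and most other genes lie near 0.

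The genes whose 4-array profile lay nearest to that of Smc6, each profile centred on its own mean, were Cyp2r1, Traj36, Ppp1r3e, Mir3094 and Rhob, at root-mean-square distances of 0.131 to 0.274 log2 units over the 4 arrays. Cyp2r1, a vitamin D hydroxylase, read 7.32 and 6.69, then 5.39 and 4.86, with WT replicate 1 and KO replicate 1 the higher of their pairs as for Smc6. Since these genes were picked from all genes by their likeness to Smc6 over the same 4 arrays, nothing is read from that order. Rhob, a small GTPase, read 10.08 and 9.40, then 8.53 and 7.90. Among the followed genes Smc5 came nearest, at 0.891 and place 1316 of all genes, followed by Smc1a at 1.02 (place 11315) and Smc4 at 1.02 (place 11749).

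These are bulk samples, in which fewer cells of a type and less RNA per cell cannot be told apart. Of 10 listed markers of dividing cells, in which condensin and Pttg1 are most used, 9 were measured. Their mean was 5.09 and 5.32 in the arrays labelled WT and 5.56 and 5.46 in those labelled KO, with 4 higher and 1 lower without overlap, beside 20.9% and 17.5% of all genes, and 3 below the median gene in every array. Mki67, a protein of dividing cells, had the greatest difference of the 9 (7.17 and 8.09, then 8.69 and 8.90). Plk1 was the 1 lower without overlap (5.95 and 6.03, then 5.93 and 5.74), and Top2a, Cdk1, Bub1 and Aurkb overlapped between groups. The mean of the 5 plasma cell markers was 6.58 and 6.69, then 7.01 and 6.92, with 2 of the 5 below the median gene in every array. Without overlap, 2 of the 5 were higher and 0 lower, beside 20.9% and 17.5% of all genes. Of these 5, Jchain had the greatest difference (6.62 and 6.47, then 7.66 and 7.49). The 5 measured T cell markers had means of 15.72 and 15.79, then 16.03 and 15.97, and all 5 were higher without overlap, beside the same 20.9% of all genes. The 3 natural killer markers had means of 6.40 and 6.73, then 6.82 and 7.09. Without overlap, 2 of the 3 were higher and 0 lower, beside 20.9% and 17.5% of all genes. Nkg7, a cytotoxic granule protein, read 10.48 and 11.09, then 11.58 and 12.31, while Ncr1 lay below the median gene in every array. Klrb1c overlapped between groups, with a difference of -0.125. The 7 regulatory T cell markers had means of 13.92 and 14.03, then 13.90 and 13.74. Of these 7, 1 was higher and 2 lower without overlap, Lrrc32 among the latter, beside 20.9% and 17.5% of all genes. The 2 CD8 T cell markers had means of 6.93 and 7.51, then 7.40 and 7.67, with Cd8b1 overlapping between groups. Cd8a went the other way, lower without overlap (4.12 and 4.23, then 4.08 and 4.07). Of the 5 myeloid markers, 1 was higher (Cd68) and 1 lower (Lyz2) without overlap. Of the 4 measured B cell markers, 0 were higher and 1 lower, beside the same 20.9% and 17.5% of all genes. The part of these shifts in the values of the SMC genes was not tested.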

How the data were processed

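The values used are log2 expression values deposited by the authors, for 65528 transcript clusters on 4 arrays. RMA and Transcriptome Analysis Console are named, per the submitters' processing notes, with no version. The log base is not written in the table and was taken as 2, the scale RMA gives. The extract and label fields describe real-time PCR, and the array's labelling and genome build are not given in the sources used. The table carries no detection call, and precision is limited by having 4 arrays. No column was left out (0).

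Gene names came from the platform annotation and were updated with RefSeq (GRCm38.p6), from which types and order of genes were also taken. Of the clusters, 30390 had 1 symbol, 652 several names of 1 gene, 1475 several genes (not used) and 33011 none. The brightest cluster was kept for the 432 genes with more than 1, which left 30497 genes. Differences, KO minus WT, were fitted across all genes with limma 3.58.1 in R 4.3.3 (lmFit, eBayes with intensity trend), with two-sided p-values adjusted by Benjamini-Hochberg and a threshold of 0.05. Of these steps, the limma fit was tested on simulated data. No gene was filtered, and the alternatives covered scaling, a filter on dim genes, cluster choice, variance model, threshold and leaving out each array.

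Named were the 9 genes, every subunit of the 3 complexes, up to 4 genes per further list with the greatest difference among those without overlap, the 2 genes beside Smc6 on each side, the 5 nearest profiles and 3 nearest followed genes, the genes next to Smc6 in size of difference, and Bmi1. A further gene of this rule is not reported here. The followed genes and the lists were chosen with earlier results of these data known. The look at nested genes and the promoter motifs were chosen after values were seen.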

Additional observations from a re-analysis of the deposited data

How the results depend on the processing

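Smc6 kept its direction under all 8 alternatives tried for it (-2.39 to -1.59). It was chosen for this difference, and its groups stood 1.47 apart at the nearest arrays. Leaving out 1 array could therefore not turn its sign. The filter on dim genes and the mean over clusters could not move it from -1.99, as it is bright and has 1 cluster. The 2 rescalings gave -1.995 and -2.14. The count of genes passing limma's adjusted p of 0.05, which was 2, became 1 with median-centred arrays, 0 after a further quantile normalization, 13 among genes at or above the median gene, 0 without the intensity trend, 0 with robust eBayes and 0 to 0 when any 1 array was left out; the related genes called were 0 under all 10 alternatives. Leaving out 1 array moved the SMC5/6 median between -0.09 and 0.00, the cohesin median between -0.12 and 0.26, the condensin median between -0.20 and 0.11, and the median of the genes around Smc6 between 0.01 and 0.03. With 5 genes on each side that median was -0.0475 (-0.0075 with 20). The cause of these shifts was not tested. Over all genes the median, 0.005 as deposited, was 0 with median-centred arrays and -0.00125 after quantile normalization, and 7 of the 69 related genes changed sign under a scaling. No paired analysis was possible because the groups share only the replicate number 1. There were 2 arrays a group and no measure of background, and the 9 SMC genes are given without a test of their own.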
